A study of Mus musculus with 23 samples.

Results

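The 36 genes described here are an endothelial identity set, chosen by name: receptors, junction proteins, transcription factors, surface glycoproteins and secreted proteins that mark the cells lining blood vessels. All 36 were found in the deposited count table, 1 row each, among 18682 features. The list was taken as given: its rule names the genes and uses no measured value, but the set was proposed with earlier results of these data known.

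The counts came from the endometrium, the inner lining of the uterus, of 23 uterine horns of female C57BL/6 mice. Uterine injury with ethanol was followed 4 days later by an injection into the horn, and tissue was taken 2 weeks after that. There were 5 PBS horns (saline) and 6 horns each of SHAM, HG and HG+ORG, where HG is a hydrogel and HG+ORG the hydrogel with human endometrial organoids (cultured clusters of human endometrial epithelium). The sources used here give neither the treatment of the SHAM horns nor the age of the animals. The endometrium was pressed out of each horn with forceps, so the amount of muscle and connective tissue that came with it may vary from horn to horn. The 23 horns came from no more than 21 animals and the map of horns to animals is not given, so horns may share an animal and p-values over horns may be too small. SHAM 5 and SHAM 6 were by far the most alike pair of horns within a group. They may come from 1 animal, which the sources used here do not say, and they count as 2 of the 6 SHAM horns throughout. Horns are named by their group and the library number, as in HG 14.

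Endothelial cells line every blood and lymphatic vessel. They are held together by vascular endothelial cadherin and other junction proteins, respond to vascular endothelial growth factor (VEGF) and angiopoietins through receptor tyrosine kinases, and keep their identity through ETS, SOX and basic helix-loop-helix transcription factors. In the endometrium vessels are remodelled with each cycle and in pregnancy. In RNA from whole tissue, fewer endothelial cells and less endothelial RNA per cell cannot be told apart.

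Total counts ranged from 7920918 to 14902952 per horn, with a median of 12701407, and mitochondrial genes took 1.50% to 11.4% of them. Of the 18682 features 17708 entered the test, all 36 endothelial genes among them. Levels are log2 CPM, that is counts scaled to library size (CPM) on the log2 scale with a prior count of 2, and a gene with 0 counts stands at -2.66 on this scale. HG+ORG 18 stood apart from the rest of its group: its summed level over 11 macrophage genes was 22491 CPM against 262 to 2376 CPM in the other 5 HG+ORG horns, over 6 neutrophil genes 4210 CPM against 11.9 to 264, and over 12 epithelial genes 1007 CPM against 6324 to 15300.4. The main results that rest on HG+ORG are therefore given with and without that horn. Fits with a smooth muscle covariate kept it.

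Most of the set rose and fell together from horn to horn, whatever the group. For each horn the median over the 36 genes was taken, after each gene had been set to its own mean over the 23 horns, so that a value of 0 is an average horn. In the SHAM horns this median was lowest at -1.82 and highest at 0.36, with a group median of -1.18. The 5 PBS horns lay far apart at 2.78, -2.88, -2.78, 2.56 and -1.59, and so held 2 of the 4 highest horns of the study and the 2 lowest. The HG horns ran from -0.03 to 2.95 with a group median of 2.10. The HG+ORG horns ran from -2.20 to 2.90 with a group median of -0.98. Replicate 18 gave the highest HG+ORG value, and without it the highest was 0.29 and the group median -1.66. All HG horns but HG 15 lay above every SHAM horn and above all HG+ORG horns but replicate 18.

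**Figure D1:**
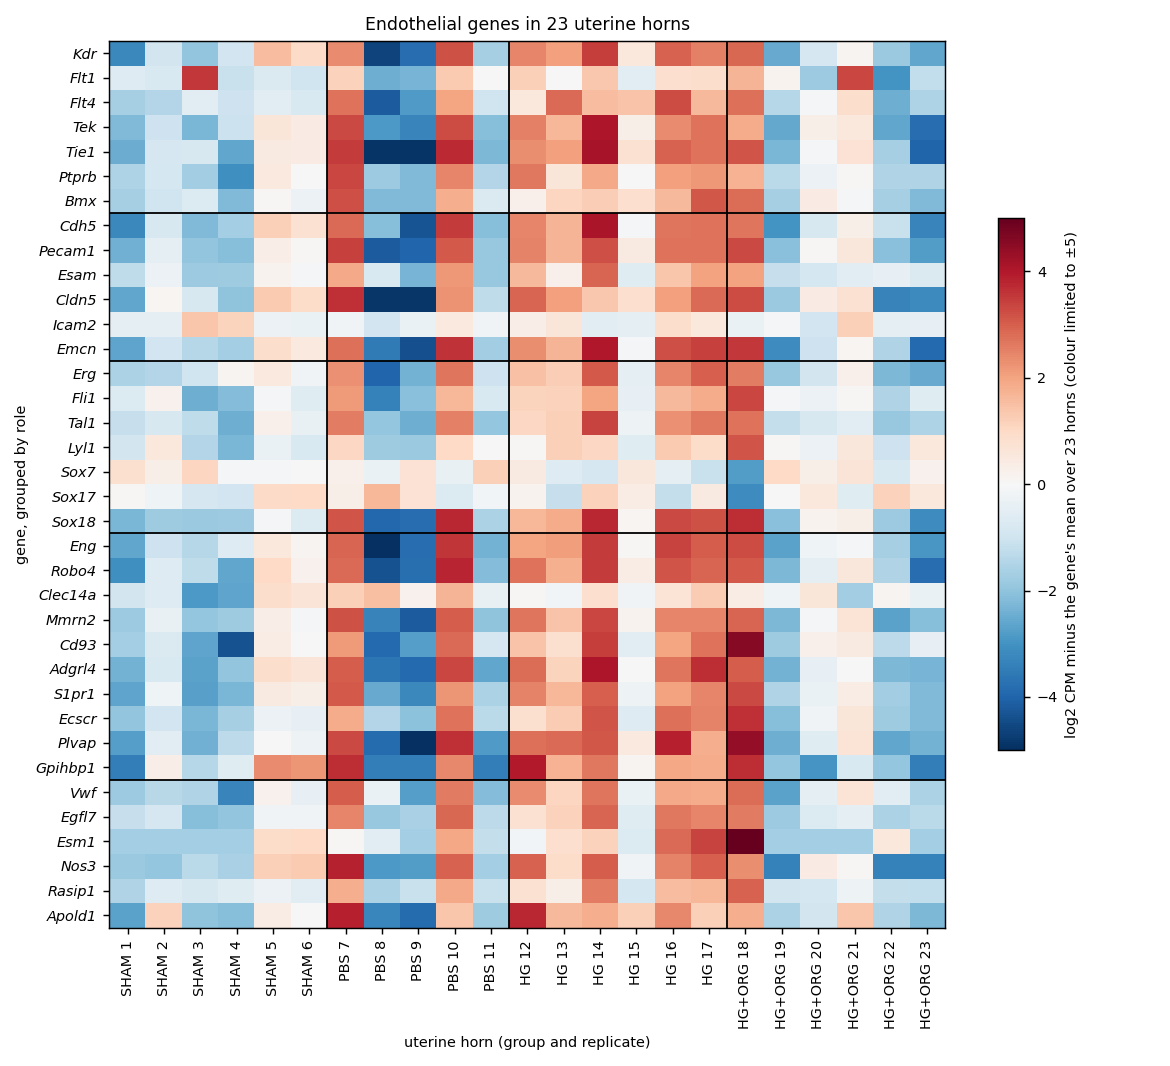
Level of each of the 36 endothelial genes (rows, grouped by role) in each of the 23 horns (columns, grouped by treatment), as log2 CPM minus the gene's mean over the horns, with the colour limited to ±5. Most rows are red in PBS 7, PBS 10, 5 of the 6 HG horns and HG+ORG 18 and blue in PBS 8 and PBS 9. The rows of Icam2, Sox7, Sox17 and Clec14a do not share that pattern. The row of Flt1 shares most of it, but its highest horns are in SHAM and HG+ORG.

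The shared movement was large against what remained once it was removed. For 30 of the 36 genes the SD over the 23 horns became smaller when the horn's median was subtracted. In these 30 the median SD was 2.33 log2 units before and 0.78 after, and the distance from lowest to highest horn was 4.52 to 9.47 log2 units. Each gene adds to the median it is compared with, so these values are a description. The other 6 genes, Flt1, Icam2, Lyl1, Sox7, Sox17 and Clec14a, did not have a smaller SD after the subtraction. A gene that moves with the set by a smaller amount can also be among them. Lyl1 was 2.41 and 2.36 in PBS 7 and PBS 10, against -0.39 and -0.47 in PBS 8 and PBS 9. In the same horns Flt1 was 5.33 and 5.45, against 1.70 and 1.82. In Sox7, Sox17 and Clec14a these PBS horns did not divide in this way. Low counts limit part of the set: 11 genes had at least 1 horn with 0 counts, led by Esm1 with 9 horns, Gpihbp1 with 5 and Bmx with 4. A count of 0 does not show that a gene was absent.

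Promoter sequences are shown for 4 of the genes that moved together, chosen because their window holds a match to an ETS binding sequence, the kind bound by Erg and Fli1. RefSeq promoter windows (GRCm38.p6, 250 bases before to 50 bases after a start site) were at hand for 19 of the 36 genes, as 24 windows. The letters CAGGAAG or CCGGAAG, on either strand, stood in 8 of these windows, in 7 genes, and in 20.93% of all 32851 windows of the same length. The SOX letters AACAAT, on either strand, stood in 3 windows of 3 genes and in 10.72% of all windows. Robo4 is at chr9:37401722-37402021, plus strand, Emcn at chr3:137340828-137341127, plus strand, and the first of the 3 windows of Egfl7 at chr2:26580833-26581132, plus strand. The window shown for Erg, 1 of 3, is at chr16:95459299-95459598, minus strand. Sequences are written 5′ to 3′ on the strand of the gene, with the ETS letters in capitals. A match describes the letters only.
Robo4: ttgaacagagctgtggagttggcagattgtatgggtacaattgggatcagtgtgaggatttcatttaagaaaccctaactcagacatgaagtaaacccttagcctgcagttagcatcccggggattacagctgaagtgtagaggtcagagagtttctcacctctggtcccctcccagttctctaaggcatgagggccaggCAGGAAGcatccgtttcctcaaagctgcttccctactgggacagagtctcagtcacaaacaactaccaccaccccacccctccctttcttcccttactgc
Emcn: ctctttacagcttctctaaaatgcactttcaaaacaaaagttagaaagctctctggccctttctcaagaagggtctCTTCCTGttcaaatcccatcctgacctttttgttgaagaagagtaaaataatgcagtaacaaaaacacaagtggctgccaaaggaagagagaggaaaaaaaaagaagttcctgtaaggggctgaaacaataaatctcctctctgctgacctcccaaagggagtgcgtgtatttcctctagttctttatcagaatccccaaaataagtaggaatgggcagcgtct
Egfl7: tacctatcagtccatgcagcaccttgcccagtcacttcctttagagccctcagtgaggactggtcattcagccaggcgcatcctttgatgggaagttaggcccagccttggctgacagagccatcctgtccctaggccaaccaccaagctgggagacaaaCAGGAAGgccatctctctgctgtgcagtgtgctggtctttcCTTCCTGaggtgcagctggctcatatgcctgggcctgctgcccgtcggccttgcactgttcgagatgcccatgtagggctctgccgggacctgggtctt
Erg: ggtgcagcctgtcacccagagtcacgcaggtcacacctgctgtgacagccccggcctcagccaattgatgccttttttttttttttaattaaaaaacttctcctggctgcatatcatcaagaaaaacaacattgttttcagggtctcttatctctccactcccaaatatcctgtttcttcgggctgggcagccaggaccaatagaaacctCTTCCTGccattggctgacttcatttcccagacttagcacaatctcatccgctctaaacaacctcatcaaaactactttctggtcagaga
Egfl7 holds 2 such matches, beginning 90 and 49 bases before the start site, and the single match begins 50 bases before it in Robo4, 174 in Emcn and 40 in Erg.

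Apart from Flt1, the receptors for VEGF and angiopoietins were highest in most HG horns, in the high PBS horns and in HG+ORG 18. Pecam1 is the usual marker of endothelial cell contacts and is given first for comparison. It was 1.36 in the lowest, 2.55 in the median and 4.10 in the highest SHAM horn, and 7.22, -0.39, -0.18, 6.83 and 1.88 in PBS 7 to 11. In HG it was 4.24, 6.38 and 7.00 in the same order, and in HG+ORG 0.98, 2.77 and 7.07, the last being replicate 18. All 6 HG horns thus exceeded all 6 SHAM horns, while PBS spanned nearly the whole range. Group means were 2.67 ± 1.21 (SD, n = 6) in SHAM, 3.07 ± 3.72 (SD, n = 5) in PBS, 6.00 ± 1.00 (SD, n = 6) in HG, 3.27 ± 2.28 (SD, n = 6) in HG+ORG and 2.51 ± 1.48 (SD, n = 5) in HG+ORG without replicate 18.

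Kdr, the main signalling receptor for VEGF-A, was -0.71, 1.55 and 4.02 in the lowest, median and highest SHAM horn and 4.84, -2.15, -1.32, 5.70 and 0.83 in PBS 7 to 11. It was 3.01, 4.98 and 5.97 in HG and -0.11, 1.15 and 5.37 in HG+ORG. Only SHAM 5 and SHAM 6, at 4.02 and 3.45, reached into the HG range, and without replicate 18 no HG+ORG horn did. Tek, the angiopoietin receptor, was -0.62, 0.61 and 2.25 in SHAM, 4.96, -1.23, -1.65, 4.93 and -0.47 in PBS, 1.95, 4.09 and 5.69 in HG and -2.13, 0.53 and 3.53 in HG+ORG. Its SHAM and HG ranges met only at HG 15, the lowest HG horn. Tie1, the partner of Tek, was listed at 0 counts in PBS 8 and PBS 9 and reached 1137 counts in HG 14. Its SHAM horns ended at 2.67 and its HG horns began at 2.98. Flt4, the VEGF-C receptor known best from lymphatic endothelium, was 0.99 or less in every SHAM horn and 2.05 or more in every HG horn. Ptprb, a phosphatase that restrains Tek, and Bmx, a cytoplasmic tyrosine kinase of endothelium, also had their highest group mean in HG, at 4.97 ± 1.02 and 0.91 ± 0.98 (SD, n = 6).

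Flt1 also had its highest group mean in HG, at 4.78 ± 0.73 (SD, n = 6) against 4.05 ± 1.80 in SHAM (SD, n = 6), but its highest horns were elsewhere. It encodes a VEGF receptor whose soluble form binds the ligand without signalling. The highest Flt1 levels were in SHAM 3 at 7.71, with 2119 counts, and in HG+ORG 21 at 7.52, with 1662 counts, and the next highest horn of any group was HG+ORG 18 at 5.85. The other 5 SHAM horns lay between 3.05 and 3.52. In SHAM 3 and HG+ORG 21 the summed level of 9 VEGF and angiopoietin ligand genes was 510 and 699 CPM, the 2 highest of the study, and the median centred level of the 12 epithelial genes was 1.01 and 0.99, also the 2 highest. The part of these in the Flt1 level was not tested.

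**Figure D2:**
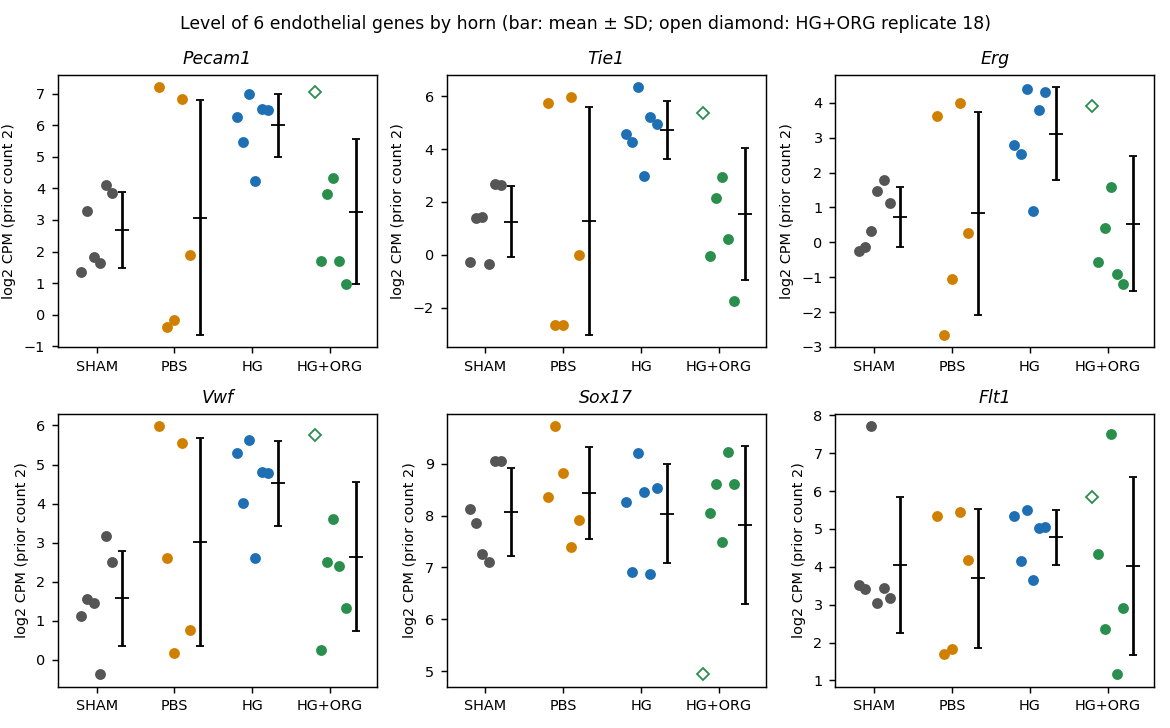
Level of 6 endothelial genes in log2 CPM (vertical axis) in each horn of the 4 groups (points), with the mean and SD beside them and HG+ORG replicate 18 as an open diamond. Pecam1, Tie1, Erg and Vwf are high in HG and split in PBS, Sox17 is lowest in HG+ORG 18, and Flt1 has its highest points in SHAM and HG+ORG.

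Among the junction and adhesion genes, Cdh5, which encodes vascular endothelial cadherin, was 0.28, 2.25 and 4.67 in the lowest, median and highest SHAM horn. It was 6.32, 1.37, -0.84, 7.01 and 1.35 in PBS 7 to 11, 3.39, 6.06 and 7.58 in HG and 0.18, 2.56 and 6.17 in HG+ORG. SHAM 5 and SHAM 6, at 4.67 and 4.25, were again the SHAM horns that reached the HG range. Cldn5, the main claudin of endothelial tight junctions, was listed at 0 counts in PBS 8 and PBS 9 and lay between 3.04 and 5.12 in HG. Emcn, a sialomucin of capillaries and veins, averaged 4.18 ± 1.47 in HG and 0.85 ± 1.35 in SHAM (SD, n = 6 each). Esam, an adhesion molecule of endothelial tight junctions and platelets, averaged 5.09 ± 1.25 and 2.98 ± 0.89. Icam2, an adhesion ligand for leukocytes, was flat by comparison: its group means lay between 4.58 in PBS and 5.03 in HG, and its highest horns were SHAM 3, HG+ORG 21 and SHAM 4 at 6.21, 6.02 and 5.94.

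The transcription factors split. Erg, the ETS factor that maintains endothelial gene expression, was -0.26, 0.73 and 1.80 in SHAM, 3.61, -2.66, -1.06, 4.00 and 0.28 in PBS 7 to 11, 0.89, 3.28 and 4.40 in HG and -1.19, -0.08 and 3.90 in HG+ORG. HG 15, at 0.89, was the HG horn inside the SHAM range. Tal1, a basic helix-loop-helix factor of blood and endothelium, had few counts, at most 13 in a SHAM horn and 124 in HG 14. In the PBS horns it was 2.36, -2.15, -2.66, 2.31 and -2.13. Sox18, of vascular and lymphatic development, lay between -0.13 and 2.05 in SHAM, against 2.25 to 5.92 in HG. Fli1, the ETS factor closest to Erg, averaged 3.56 ± 0.87 in HG and 1.39 ± 1.08 in SHAM, but its highest horn was HG+ORG 18 at 5.67. Lyl1, a relative of Tal1 that is also expressed in blood cells, was likewise highest there, at 4.53 against 0.35 to 1.96 in the other HG+ORG horns. Macrophage genes were highest in the same horn, as given above, and their part in these levels was not tested.

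Sox17 and Sox7, the other F-group SOX factors, behaved unlike the rest of the set. Sox17 had 246 to 12558 counts per horn and was highest, at 9.72, in PBS 8, the horn with the lowest median of the set. It was lowest, at 4.94, in HG+ORG 18, the horn with the second highest median. Group means were 8.07 ± 0.85 in SHAM, 8.44 ± 0.89 (n = 5) in PBS, 8.04 ± 0.95 in HG and 7.82 ± 1.53 in HG+ORG (SD, n = 6 where not stated), and 8.39 ± 0.66 (n = 5) in HG+ORG without replicate 18. Sox7 was also lowest in HG+ORG 18, at 3.82, against 5.51 or more in every other horn. The epithelial genes had their lowest median centred level, -2.98, in that same horn and lay between -0.57 and 1.01 in the other 22. Sox17 is known to be expressed in uterine epithelium as well as in endothelium. The part of epithelial RNA in these 2 genes was not tested.

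Of the other surface proteins, Plvap, the diaphragm protein of fenestrated capillaries and veins, had the widest range of all 36 genes, 9.47 log2 units, from 1 count in PBS 9 to 1362 counts in HG+ORG 18. It was 0.28, 2.10 and 3.05 in SHAM, 6.31, -0.83, -2.07, 6.66 and 0.19 in PBS 7 to 11, 3.52, 5.82 and 6.91 in HG and 0.43, 1.52 and 7.40 in HG+ORG. Every HG horn lay above every SHAM horn. Gpihbp1, which carries lipoprotein lipase across capillary endothelium, had 0 counts in SHAM 1, PBS 8, PBS 9, PBS 11 and HG+ORG 23, and its highest horns were HG 12 at 4.78, PBS 7 at 4.50 and HG+ORG 18 at 4.48. Its SHAM horns were -2.66, 0.67 and 3.16 at lowest, median and highest, and its HG horns 0.95, 2.70 and 4.78. In HG 12 the adipocyte genes also had their highest sum, 18741 CPM, against 2.79 to 1686 CPM in the other HG horns; the part of fat tissue in the Gpihbp1 level was not tested. Eng, a co-receptor for TGF-beta, averaged 5.66 ± 1.29 in HG and 2.48 ± 1.12 in SHAM (SD, n = 6 each). Robo4, a guidance receptor that stabilises vessels, averaged 4.08 ± 1.16 and 0.63 ± 1.58 in the same groups. S1pr1, a sphingosine phosphate receptor that tightens the vessel barrier, averaged 4.79 ± 1.15 and 1.72 ± 1.51, and Mmrn2, a matrix protein that binds Cd93 and Clec14a, 4.19 ± 1.12 and 1.17 ± 1.01. Adgrl4, an adhesion receptor of vessel endothelium, averaged 4.22 ± 1.54 and 0.78 ± 1.54, and Ecscr, an endothelial regulator of cell movement, 3.50 ± 1.43 and 0.59 ± 0.83. In all 6 of these genes, Eng and Robo4 included, HG had the higher mean, but the lowest HG horn lay inside the SHAM range. Cd93, a surface protein of endothelium and myeloid cells, was highest in HG+ORG 18 at 8.28, where the next HG+ORG horn was at 4.19. Clec14a, a lectin of vessel walls, lay between 3.37 and 5.46 in PBS, against 3.57 to 5.03 in HG, and was 5.26 in PBS 8, where 28 of the 36 genes were among their 5 lowest horns.

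In the last group, Vwf, the clotting protein stored in endothelial granules, was -0.37, 1.51 and 3.16 in SHAM and 5.98, 2.62, 0.17, 5.55 and 0.77 in PBS 7 to 11. It was 2.60, 4.80 and 5.62 in HG and 0.27, 2.45 and 5.75 in HG+ORG. Only SHAM 5, at 3.16, reached the HG range, through HG 15 at 2.60. Egfl7, a secreted matrix protein of growing vessels, averaged 5.42 ± 1.35 in HG and 2.79 ± 0.85 in SHAM (SD, n = 6 each). Esm1, a tip-cell proteoglycan, had 0 counts in 4 SHAM, 1 PBS and 4 HG+ORG horns and 2 to 66 counts in the HG horns, and its highest value, 171 counts, was in HG+ORG 18. Nos3, the endothelial nitric oxide synthase, averaged 2.74 ± 1.34 in HG and 0.01 ± 1.52 in SHAM. Rasip1, an effector needed for vessel lumens, averaged 3.36 ± 1.20 in HG and 1.64 ± 0.42 in SHAM. Apold1, an early response gene of endothelium, began at 2.95 in HG, just above the highest SHAM horn at 2.92.

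The comparison of HG with SHAM gave the largest median fold of the set without leaving out any horn. No endothelial gene, and none of the 17708 features, passed an adjusted p of 0.05 in the quasi-likelihood test of edgeR, so percent called was 0%. At an unadjusted p under 0.05, 26 of the 36 genes were higher and none lower, against 9.15% of all features higher and 2.12% lower. Values of 7 genes did not overlap between the groups, all higher in HG: Flt4, Tie1, Bmx, Pecam1, Sox18, Plvap and Apold1. Over all features 1.19% did so. For Bmx the lowest HG horn, HG 12 at -0.19, and the highest SHAM horn, SHAM 5 at -0.38, both had 9 counts. Its separation thus rests on the scaling to library size. The median fitted log2 fold over the 36 genes was 2.83, against 0.002 over all features, with 32 above 0. A fitted fold compares mean counts and so leans on the highest horns, and the median difference of mean log2 CPM, which weights horns equally, was 2.80. By gene the fitted log2 fold with its SE was 3.17 ± 1.20 for Pecam1, 2.95 ± 1.21 for Cdh5, 2.54 ± 1.21 for Kdr, 3.25 ± 1.19 for Tek and 2.70 ± 1.10 for Erg. It was 3.72 ± 1.40 for Plvap, 2.87 ± 0.99 for Vwf, 3.27 ± 1.19 for Tal1, 1.50 ± 1.49 for Gpihbp1 and -0.004 ± 0.54 for Sox17. Egfl7 had the smallest p of the set, with a fold of 2.88 ± 0.94 (SE) and an adjusted p of 0.265 in edgeR. By role, 6 of 7 receptor and partner genes, 4 of 6 junction genes, 4 of 7 transcription factors, 8 of 10 other surface genes and 4 of 6 secreted and intracellular genes had a p under 0.05.

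The call in this comparison depended on the test. DESeq2 called 281 features, 272 of them higher in HG (1.54%), and among these were 4 endothelial genes: Flt4 (log2 fold 3.24, adjusted p = 0.0408), Sox18 (4.07, adjusted p = 0.0273), Ecscr (3.31, adjusted p = 0.0361) and Egfl7 (2.89, adjusted p = 0.0383). edgeR fitted to the HG and SHAM horns alone, and so without the wide spread of PBS and HG+ORG, called 386 of 16216 features, 383 of them higher (2.36%) and 3 lower (0.0185%). Among those higher were 18 of the 34 endothelial genes that remained in that smaller test. That count fell to 0 when SHAM 1, 2, 3, 4 or 6, or HG 13, 16 or 17 was left out, to 1 without HG 14 and to 7 without SHAM 5. It was 16 without HG 12 and 23 without HG 15. Where it fell to 0, the smallest adjusted p of the set in edgeR was 0.0513 to 0.0808. In those fits 28 to 30 endothelial genes, and 1860 to 2700 of all features, had an unadjusted p under 0.05. With all HG and SHAM horns these counts were 28 and 2302.

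Smooth muscle, stroma and mural cell genes were higher in the same HG horns. The summed level of 14 smooth muscle genes was 193 to 4543 CPM in HG and 78.2 to 196 CPM in SHAM. That of 10 stroma genes was 375 to 4229 CPM in HG and 153 to 767 in SHAM, and that of 8 mural cell genes, markers of the pericytes around vessels, 26.1 to 512 and 13.4 to 70.2 CPM. Epithelial genes summed to 4274 to 9024 CPM in HG and 6737 to 16590.3 CPM in SHAM. With the smooth muscle score as a covariate the median fold of the endothelial genes in this comparison was 0.95, with 31 of 36 above 0. HG 12 held smooth muscle genes at 193 CPM, within the SHAM range, and adipocyte genes at 18741 CPM, the highest of the study, with an endothelial median of 1.83. HG 15, with 343 CPM of smooth muscle genes, had -0.03. In HG 12 stroma genes summed to 1109 CPM and mural cell genes to 83.4 CPM, above every SHAM horn. In HG 15 these sums were 375 and 26.1 CPM, within the SHAM ranges. Blood cell genes were divided. Of 6 neutrophil genes 5 had a fold below 0 and 1 above, with a median of -1.43. Of 4 megakaryocyte and platelet genes 3 were below 0 and 1 above, with a median of -0.08. Of 11 macrophage genes 8 were above 0 and 3 below, with a median of 1.12. All 5 erythrocyte genes had an unadjusted p under 0.05 for higher levels in HG, with a median fold of 2.34, and summed to 77.5 to 602 CPM in HG and 9.01 to 161 CPM in SHAM. Of 5 lymphocyte genes 4 did so, with a median of 2.19, and summed to 3.88 to 9.89 CPM and 0.12 to 2.33 CPM. The part of these other cells in the endothelial levels was not tested beyond the smooth muscle covariate.

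**Figure D3:**
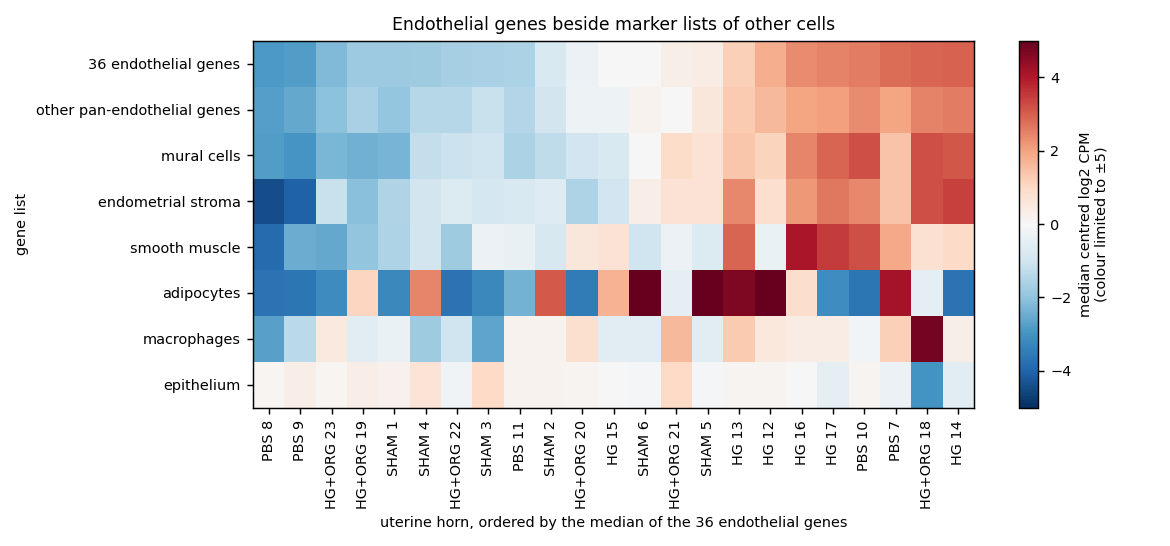
Median centred log2 CPM (colour, limited to ±5) of the 36 endothelial genes and of marker lists of other cells (rows) in the 23 horns, ordered from the lowest to the highest endothelial median. Other pan-endothelial genes, mural cell and stroma genes follow the same order, adipocyte genes do not, and HG+ORG 18 is highest for macrophage and lowest for epithelial genes.

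Other vessel genes were divided: further pan-endothelial, lymphatic and venous genes were mostly higher in HG than in SHAM by fold, and Notch and arterial genes less uniformly so, with 9 of 14 above 0. Of 24 further pan-endothelial genes, all tested, 18 had an unadjusted p under 0.05 for higher levels in HG than in SHAM and 24 a fold above 0, with a median of 2.33. The first 4 listed were Cd34 (2.97), a sialomucin of endothelium and progenitors, Ramp2 (2.41) and Calcrl (2.54), which together form the adrenomedullin receptor, and Myct1 (3.53), an endothelial membrane protein. Of 14 Notch and arterial genes 4 were higher at that p, with a median fold of 0.25. Dll4, an arterial Notch ligand, had -0.11. Of 7 lymphatic genes 5 were higher, with a median of 2.62, and of 8 venous and activation genes 5, with a median of 1.80. Of the 9 VEGF and angiopoietin ligand genes 3 were higher, with a median of 1.94, while Vegfa itself, the main endothelial growth factor, had a fold of -0.25 ± 0.60 (SE). None of these genes passed an adjusted p of 0.05, and 2 of the Notch and arterial genes and 1 each of the venous and lymphatic genes are also among the 36.

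HG+ORG was below HG in most of the set, and the size of the fitted fold turned on replicate 18. With all horns 0 genes passed an adjusted p of 0.05 (0% of all features), and at an unadjusted p under 0.05 1 gene was lower, against 4.63% of all features lower and 5.18% higher. That gene was Tek, with a log2 fold of -2.58 ± 1.16 (SE) and an adjusted p of 0.472 in edgeR. The median fold was -1.36, against 0.04 over all features, with 31 of 36 below 0. The median difference of mean log2 CPM, which weights horns equally, was -2.24. Without replicate 18, 30 genes were lower at that p, against 9.27% of all features lower and 2.71% higher. The median fold was then -3.05, against 0.01, with 33 below 0, and the median difference of mean log2 CPM was -2.95. The smallest adjusted p in the set was 0.169, so again none passed. The values of 6 genes did not overlap between the remaining 5 HG+ORG horns and the 6 HG horns, Kdr, Cldn5, Tal1, Eng, Adgrl4 and Gpihbp1, all lower in HG+ORG, against 0.815% of all features. For Kdr the HG+ORG horns ended at 2.68 and the HG horns began at 3.02 after scaling without replicate 18. Adgrl4 ended at 1.83 where HG began at 1.86, Cldn5 at 3.019 where HG began at 3.045, and Eng at 3.31 where HG began at 3.38. Tal1 had no more than 5 counts in these HG+ORG horns and 7 counts in the lowest HG horn. Gpihbp1 ended at 0.09 where HG began at 0.96.

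By gene, the fold of HG+ORG against HG with all horns and then without replicate 18 was -1.35 ± 1.12 and -3.17 ± 1.14 (SE) for Pecam1, -2.17 ± 1.17 and -3.78 ± 1.24 for Cdh5, and -1.92 ± 1.18 and -3.81 ± 1.23 for Kdr. For Tek it was -2.58 ± 1.16 and -3.50 ± 1.25, for Erg -1.80 ± 1.06 and -3.49 ± 1.08, and for Tal1 -1.77 ± 1.11 and -3.93 ± 1.13. For Plvap it was -0.85 ± 1.26 and -3.73 ± 1.26, for Gpihbp1 -1.32 ± 1.49 and -5.04 ± 1.64, and for Vwf -1.06 ± 0.93 and -2.42 ± 0.92. Sox17 stayed near 0, at -0.01 ± 0.54 and 0.21 ± 0.47. The 6 genes without a p under 0.05 once replicate 18 was left out were Flt1, Icam2, Lyl1, Sox7, Sox17 and Clec14a. They are the 6 whose SD did not fall when the horn median was subtracted. That rule used the same HG and HG+ORG horns, and the horn median itself differed between these groups. The match of the lists is therefore partly built in and is not a separate result. Smooth muscle genes were lower in the same horns, at 45.2 to 365 CPM in HG+ORG without replicate 18, against 193 to 4543 CPM in HG. With the smooth muscle score as a covariate and all horns kept, the median fold of the set was -0.58.

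**Figure D4:**
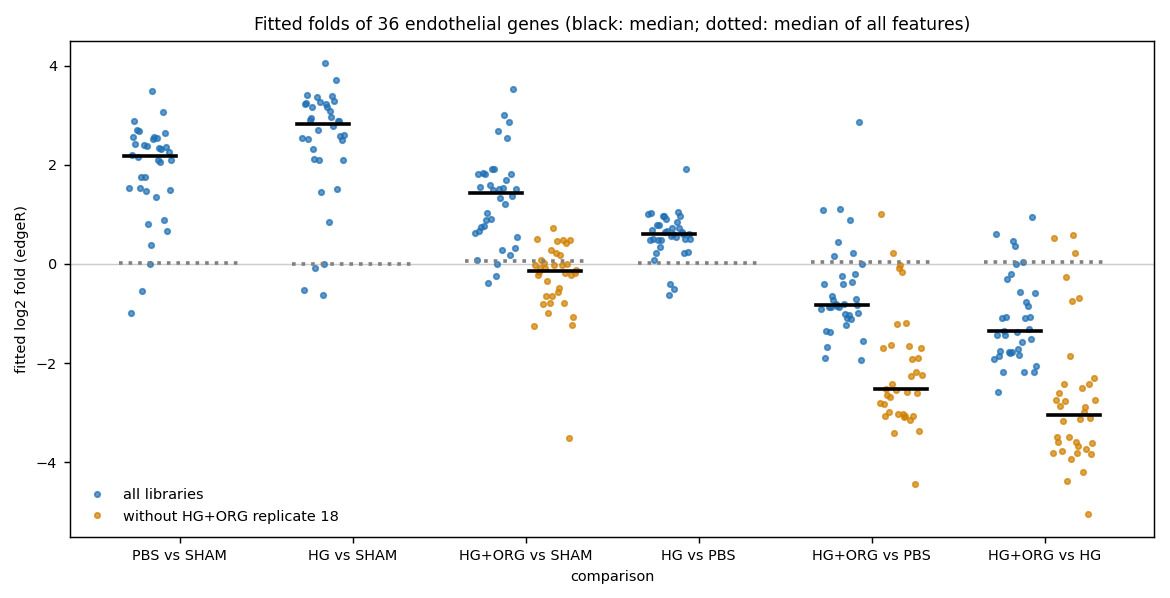
Fitted log2 fold of each of the 36 endothelial genes (points) in each of the 6 comparisons, with all libraries (blue) and, for comparisons with HG+ORG, without HG+ORG replicate 18 (orange). Black lines mark the median of the set and dotted lines the median of all features. The median is 2.83 for HG against SHAM and moves from -1.36 to -3.05 for HG+ORG against HG when replicate 18 is left out.

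PBS against SHAM asks how saline-injected horns differed from SHAM horns. No endothelial gene passed an adjusted p of 0.05 (0% of all features), and at an unadjusted p under 0.05 13 genes were higher and 0 lower, against 1.52% of all features higher and 0.655% lower. The median fold was 2.18, against 0.02 over all features, with 34 above 0. The median difference of mean log2 CPM was 0.44, with PBS 7 and PBS 10 high and PBS 8, 9 and 11 low. By gene the fold was 2.69 ± 1.20 (SE) for Pecam1, 2.15 ± 1.21 for Cdh5, 1.52 ± 1.21 for Kdr, 2.57 ± 1.19 for Tek and 1.74 ± 1.10 for Erg. It was 3.06 ± 1.39 for Plvap, 2.65 ± 1.00 for Vwf, 2.37 ± 1.19 for Tal1, 0.89 ± 1.53 for Gpihbp1 and 0.39 ± 0.57 for Sox17. Ptprb had the smallest p, with a fold of 2.43 ± 0.92 and an adjusted p of 1 in edgeR. For Kdr and Gpihbp1 the difference of mean log2 CPM had the opposite sign, -0.15 and -0.76. The sign also turned for Eng, Cldn5 and Sox7, with PBS means of 2.36, 1.18 and 6.92 against 2.48, 1.69 and 6.97 in SHAM. The difference of means was above 0 in 29 of the 36 genes. Smooth muscle genes summed to 853 and 2284 CPM in PBS 7 and PBS 10 and to 40.0 to 156 CPM in the other 3, and with their score as a covariate the median fold was -0.13. All 5 erythrocyte genes had an unadjusted p under 0.05 for higher levels in PBS, with a median fold of 2.38. They summed to 675, 6.60, 16.2, 117 and 408 CPM in PBS 7 to 11, and their part in the endothelial levels was not tested.

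HG against PBS compared the hydrogel with saline. No endothelial gene had a p under 0.05, adjusted or not, against 0% of all features at an adjusted p and 2.38% higher and 0.988% lower at an unadjusted one. The median fold was 0.61, against 0.02, with 33 of 36 above 0, and the median difference of mean log2 CPM was 2.21. With the smooth muscle covariate the median fold was 1.09. The folds were 0.48 ± 1.16 (SE) for Pecam1, 0.80 ± 1.19 for Cdh5, 1.01 ± 1.22 for Kdr, 0.68 ± 1.15 for Tek, 0.96 ± 1.09 for Erg and 0.90 ± 1.12 for Tal1. They were 0.65 ± 1.32 for Plvap, 0.61 ± 1.54 for Gpihbp1, 0.23 ± 0.96 for Vwf and -0.40 ± 0.57 for Sox17. Sox7, with -0.62 ± 0.46, had the smallest p, 0.193, and an adjusted p of 0.991. For Pecam1 all 6 HG horns lay inside the PBS range, between PBS 11 and PBS 7.

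HG+ORG against PBS compared the hydrogel with organoids with saline. No gene had a p under 0.05, adjusted (0% of all features) or not (4.86% of all features higher, 1.23% lower), and the median fold was -0.82, against 0.05, with 28 below 0. With the smooth muscle score as a covariate and all horns kept, the direction turned: the median fold was 0.56, with 27 of 36 above 0. Without replicate 18 and without the covariate, 24 genes were lower at an unadjusted p under 0.05, against 1.75% of all features lower and 1.01% higher, none passed the adjusted test, and the median fold was -2.52. The median difference of mean log2 CPM was -0.005 with all horns and -0.70 without replicate 18. With all horns the folds were -0.87 ± 1.15 (SE) for Pecam1, -1.38 ± 1.19 for Cdh5, -0.90 ± 1.20 for Kdr, -1.89 ± 1.17 for Tek, -0.84 ± 1.08 for Erg and -0.88 ± 1.14 for Tal1. They were -0.20 ± 1.31 for Plvap, -0.71 ± 1.54 for Gpihbp1, -0.84 ± 0.96 for Vwf and -0.40 ± 0.57 for Sox17. Without replicate 18 they were -2.68 ± 1.14 (SE) for Pecam1, -2.99 ± 1.21 for Cdh5 and -2.80 ± 1.20 for Kdr. Tek then had -2.82 ± 1.24, Erg -2.53 ± 1.07, Tal1 -3.03 ± 1.13 and Plvap -3.07 ± 1.24. Gpihbp1 had -4.43 ± 1.63, Vwf -2.19 ± 0.93 and Sox17 -0.16 ± 0.49. With all horns Clec14a had the smallest p in edgeR, 0.0708, with a fold of -1.08 ± 0.57 and an adjusted p of 0.851. The higher counts in PBS came from PBS 7 and PBS 10, since the other 3 PBS horns lay below the HG+ORG median for Pecam1, Kdr and Tie1.

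HG+ORG against SHAM depended on replicate 18 in direction. With all horns 7 genes were higher at an unadjusted p under 0.05, against 8.09% of all features higher and 1.82% lower, and 0 at an adjusted one (0%). They were Cd93, Ecscr, Esm1, Fli1, Lyl1, Plvap and Sox18. The median fold was 1.44, against 0.06, and 0.29 with the smooth muscle covariate. The median difference of mean log2 CPM was 0.40 with all horns and -0.20 without replicate 18. Without replicate 18 the median fold was -0.15, with 24 of 36 below 0, and 1 gene, Gpihbp1, was lower at an unadjusted p under 0.05, against 1.57% of all features lower and 1.87% higher. With all horns and then without replicate 18 the folds were 1.82 ± 1.14 and 0.02 ± 1.04 (SE) for Pecam1, 0.77 ± 1.14 and -0.81 ± 1.11 for Cdh5, 0.62 ± 1.16 and -1.25 ± 1.12 for Kdr, and 0.67 ± 1.12 and -0.23 ± 1.15 for Tek. They were 0.90 ± 1.06 and -0.78 ± 1.01 for Erg, 1.50 ± 1.17 and -0.65 ± 1.13 for Tal1, 2.87 ± 1.35 and 0.01 ± 1.14 for Plvap, and 1.81 ± 0.96 and 0.47 ± 0.87 for Vwf. For Gpihbp1 they were 0.19 ± 1.48 and -3.51 ± 1.56, and for Sox17 -0.01 ± 0.54 and 0.22 ± 0.47. Lyl1 had the smallest p with all horns, 0.0136, with a fold of 1.92 ± 0.71 and an adjusted p of 0.344. In 5 of the 6 HG+ORG horns the set lay in the range of the SHAM horns or a little below, its medians running from -2.20 to 0.29 against -1.82 to 0.36.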

How the data were processed

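Bulk RNA-seq of mouse endometrium was analysed from raw read counts per gene, whole numbers as deposited by the authors. HISAT2 2.2.1, featureCounts 2.0.3, DESeq2 1.42.1, Trimmomatic 0.39, SAMtools 1.21, MultiQC 1.27.1, FastQC 0.11.9, R 4.3.1 and build GRCm39 were used per the submitters' processing notes. Annotation release and strand setting were not stated in the sources used here, although the libraries were stranded per the labels' protocols. By GENCODE M21 exons, 7 of the 36 genes (Lyl1, Sox17, Eng, Ecscr, Egfl7, Nos3 and Rasip1) overlap another gene and their counts are uncertain for that reason. Each row reached 10 counts in no fewer than 3 libraries, so rare transcripts may have been removed before deposit. Members were matched by symbol, and coordinates were used only for RefSeq promoter windows in their own build.

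edgeR 4.0.16 in R 4.3.3 was run with TMM factors and filterByExpr by group, which removed 974 of 18682 features. All 23 libraries of the 4 groups entered 1 quasi-likelihood fit with no covariate. The 6 contrasts were tested with Benjamini-Hochberg adjustment over all 17708 features at 0.05. The SE of a fold is its size divided by the root of the F statistic. HG+ORG values without replicate 18 come from a fit and scaling without it. DESeq2 1.42.0, limma 3.58.1 (limma-trend on log2 CPM), RLE factors, no filter, the 2 groups of a contrast alone, a smooth muscle covariate (mean log2 CPM of 14 genes), each horn left out and a prior count of 0.5 were alternatives. The tests were tried on simulated counts. Folds are given in full for Pecam1, Cdh5, Kdr, Tek, Erg, Sox17, Plvap, Gpihbp1, Vwf and Tal1 and for the gene with the smallest p in a contrast. The others are given by level and count, and other lists by counts with at most 4 genes, the first listed. Of the list of megakaryocytes and platelets 4 of 5 genes were tested, with 0 called in any contrast and a median fold of -0.08 for HG against SHAM. Their sum was highest in HG+ORG 18, at 480 CPM. Of the lymphocyte list 5 of 9 genes were tested. Members, lists and rules were chosen with earlier results of these data known. The p-values measure the spread between these horns. SHAM 5 and SHAM 6 were the closest of 55 pairs within groups (chi-square per degree of freedom 2.76, the next pair 16.5), which is above counting noise, and were counted separately although they may be horns of 1 animal.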

Additional observations from a re-analysis of the deposited data

Results flagged for a closer look

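Within a group, a horn was set apart where its gap to the nearest other horn was a large share of the group's range by Dixon's test at the 95% level. Of 144 groups of values (36 genes in 4 groups) 8 were set apart in this way. Chance alone does so in about 1 of 20 groups.

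Flt1 in SHAM 3 was at 7.71 log2 CPM, with the nearest SHAM horn at 3.52. The other 7 were all the highest value of their gene in HG+ORG and all in replicate 18, so they share 1 library. They were Cd93 at 8.28 (nearest other 4.19), Egfl7 at 6.47 (3.39), Esam at 5.85 (3.42), Fli1 at 5.67 (2.41), Rasip1 at 5.30 (2.12), Esm1 at 4.41 (-0.41) and Tal1 at 2.52 (-0.74). Macrophage and neutrophil genes were also highest in that horn. Megakaryocyte and platelet genes summed to 480 CPM there, against 11.1 to 37.7 CPM in the other HG+ORG horns. Lymphatic genes summed to 939 CPM against 7.31 to 55.6, and stroma genes to 16119 CPM against 136 to 1854. Sums of epithelial genes and of Notch and arterial genes were lowest in that horn. The part of these other cells in these 7 values was not tested.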

How the results depend on the processing

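No paired analysis was possible because the replicate numbers in the labels run through the whole series, so that no 2 groups share one. Under every edgeR alternative that kept all 4 groups, and under limma-trend, 0 endothelial genes were called in any comparison. DESeq2 called 1 feature for PBS against SHAM, 163 for HG+ORG against HG and 83 for HG+ORG against SHAM, with no endothelial gene among them, and 281 with 4 endothelial genes for HG against SHAM. The fit of HG and SHAM alone called 386 features and 18 endothelial genes. Leaving out 1 horn at a time from that fit, an alternative added after seeing the data, gave 0 to 893 features and 0 to 23 endothelial genes. The cause was not tested. In the fit of all groups no omission of 1 horn led to a call.

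The median fold of the set ranged over these omissions from 1.31 to 2.57 for PBS against SHAM, 0.33 to 1.21 for HG against PBS, -2.52 to -0.16 for HG+ORG against PBS, -3.05 to -1.08 for HG+ORG against HG, 2.57 to 3.21 for HG against SHAM and -0.15 to 1.78 for HG+ORG against SHAM. With the smooth muscle covariate it was 0.95 for HG against SHAM, -0.13 for PBS against SHAM, 0.56 for HG+ORG against PBS, 1.09 for HG against PBS and 0.29 for HG+ORG against SHAM.

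None of the folds that changed sign was called. With limma-trend these were Kdr -0.15 and Gpihbp1 -0.76 for PBS against SHAM, Pecam1 0.20, Kdr 0.12 and Plvap 0.47 for HG+ORG against PBS, and Kdr -0.034, Tek -0.11, Erg -0.18 and Gpihbp1 -1.13 for HG+ORG against SHAM. With the smooth muscle covariate they were Pecam1 -0.14, Cdh5 -0.21, Kdr -1.37, Tek -0.062, Erg -0.63, Plvap -0.29 and Gpihbp1 -1.74 for PBS against SHAM, and Sox17 0.37 for HG against PBS. For HG+ORG against PBS they were Pecam1 0.69, Cdh5 0.064, Kdr 0.88, Erg 0.53, Plvap 1.43, Gpihbp1 0.47 and Tal1 0.45. For HG against SHAM it was Sox17 0.79, which was 0.020 in the fit of these 2 groups, and for HG+ORG against SHAM Cdh5 -0.15, Kdr -0.49, Tek -0.34, Erg -0.10 and Gpihbp1 -1.27. Leaving out 1 horn at a time, signs changed within these ranges: Sox17 -0.061 to 0.62 and Gpihbp1 -0.58 to 1.47 for PBS against SHAM, Sox17 -0.69 to 0.056, Gpihbp1 -0.044 to 2.08 and Vwf -0.084 to 1.00 for HG against PBS, and Kdr -2.80 to 0.20, Sox17 -0.70 to 0.051, Plvap -3.07 to 0.65 and Gpihbp1 -4.43 to 0.76 for HG+ORG against PBS. Sox17 ran from -0.31 to 0.29 for HG+ORG against HG and from -0.30 to 0.23 for HG against SHAM. For HG+ORG against SHAM the ranges were Cdh5 -0.81 to 1.35, Kdr -1.25 to 1.28, Tek -0.23 to 1.06, Erg -0.78 to 1.19, Sox17 -0.31 to 0.22, Gpihbp1 -3.51 to 0.74 and Tal1 -0.65 to 1.97. Genes with 0 counts in some horns, Esm1, Gpihbp1, Bmx and Tal1 among them, have folds that rest on few reads.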
